A study of Homo sapiens with 6 samples.

Results

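The zinc finger genes of chromosome 19 were followed in UE7T-9 cells, a mesenchymal stem cell (MSC) line from human bone marrow, with and without knockout (KO) of SRRM4, a splicing factor best known from neurons. Members were chosen by name and place: protein-coding genes of chromosome 19 whose symbol is ZNF followed by a number, with at most 1 further letter, which gave 246 of the 58735 genes in the count table. The 3 control libraries came from UE7T-9 cells labelled wild type (WT). The 3 SRRM4 KO libraries came from UE7T-9 cells infected with a lentiviral CRISPR vector, lentiCRISPR v2, selected with puromycin and grown out by limiting dilution, so the KO line is 1 clone. The study describes the knockout as partial, with SRRM4 protein lowered in this line but not lost, and KO is used below as the name of the line. Whether a difference came with the knockout, the vector and selection, or the choice of this clone cannot be told apart in this design. RNA was read as non-stranded mRNA-seq and counted per gene. Nothing in the labels says that the libraries of a group came from separate cultures, so the p-values below measure only the spread between these libraries.

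Zinc finger proteins of the C2H2 type bind DNA through a row of small zinc-holding units, the fingers, each of which contacts a few bases. Most of those encoded on chromosome 19 also carry a KRAB domain, which binds the corepressor TRIM28. TRIM28 in turn brings in the histone H3 lysine 9 methyltransferase SETDB1, heterochromatin protein 1 and histone deacetylases, and the site is silenced. Many KRAB zinc finger proteins bind retrotransposons. The genes lie in clusters that grew by repeated duplication, so that neighbours are often close in sequence. In the table's own annotation, 238 of the 246 members belonged to the transcription factor family zf-C2H2 and 8 had no family (ZNF8, ZNF229, ZNF414, ZNF428, ZNF723, ZNF738, ZNF761 and ZNF888). A KRAB sequence pattern was found in the longest coding transcript of 211 members, against 0.604% of 19030 protein-coding genes outside the family, and the members encoded a median of 12 fingers (range 0 to 36).

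Promoter sequences are shown for the members with the largest changes, because 8 of the 10 members called higher had fewer than 20 CG dinucleotides there. The first 4 are the members with the largest called rises under the naming rule, ZNF880 is the member with the largest called fall, and ZNF135 had no count in any KO library. Each runs 5′ to 3′ on the gene's own strand, from 250 bases before the RefSeq transcript start to 50 after it (GRCh38.p14), and the capitals mark each CG, which reads the same on both strands. These starts lay from 0 to 32 bases from the gene starts in the count table.
ZNF257, chr19:22052234-22052533, plus strand: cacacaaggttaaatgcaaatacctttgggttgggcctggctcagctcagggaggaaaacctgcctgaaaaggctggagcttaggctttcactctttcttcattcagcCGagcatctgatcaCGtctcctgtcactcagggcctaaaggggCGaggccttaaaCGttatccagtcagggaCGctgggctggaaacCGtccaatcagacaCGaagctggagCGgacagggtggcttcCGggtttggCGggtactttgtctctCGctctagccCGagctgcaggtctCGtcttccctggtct
ZNF439, chr19:11848476-11848775, plus strand: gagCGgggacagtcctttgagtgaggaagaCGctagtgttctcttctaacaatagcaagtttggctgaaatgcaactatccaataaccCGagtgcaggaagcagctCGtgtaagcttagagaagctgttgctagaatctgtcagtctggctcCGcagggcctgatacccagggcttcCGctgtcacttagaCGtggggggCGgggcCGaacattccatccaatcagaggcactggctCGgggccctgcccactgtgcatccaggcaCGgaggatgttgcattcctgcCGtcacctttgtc
ZNF549, chr19:57527106-57527405, plus strand: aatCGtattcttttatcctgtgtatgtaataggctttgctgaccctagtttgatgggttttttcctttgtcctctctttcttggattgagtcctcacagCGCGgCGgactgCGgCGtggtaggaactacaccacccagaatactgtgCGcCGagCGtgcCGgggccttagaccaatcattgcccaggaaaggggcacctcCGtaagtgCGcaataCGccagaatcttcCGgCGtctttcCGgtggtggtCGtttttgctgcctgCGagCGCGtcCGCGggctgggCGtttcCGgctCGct
ZNF699, chr19:9309789-9310088, minus strand: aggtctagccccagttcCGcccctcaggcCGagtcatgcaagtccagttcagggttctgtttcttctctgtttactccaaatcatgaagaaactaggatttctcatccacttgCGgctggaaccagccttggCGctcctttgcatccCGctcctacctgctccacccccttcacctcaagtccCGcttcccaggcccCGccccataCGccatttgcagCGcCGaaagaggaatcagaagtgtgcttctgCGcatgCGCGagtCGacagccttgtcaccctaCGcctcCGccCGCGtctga
ZNF880, chr19:52369673-52369972, plus strand: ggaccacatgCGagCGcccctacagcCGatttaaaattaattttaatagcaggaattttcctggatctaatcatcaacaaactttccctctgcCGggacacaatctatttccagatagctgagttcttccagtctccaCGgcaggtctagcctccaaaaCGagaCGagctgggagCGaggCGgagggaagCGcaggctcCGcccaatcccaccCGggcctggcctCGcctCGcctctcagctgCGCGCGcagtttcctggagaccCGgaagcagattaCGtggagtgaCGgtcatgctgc
ZNF135, chr19:58058989-58059288, plus strand: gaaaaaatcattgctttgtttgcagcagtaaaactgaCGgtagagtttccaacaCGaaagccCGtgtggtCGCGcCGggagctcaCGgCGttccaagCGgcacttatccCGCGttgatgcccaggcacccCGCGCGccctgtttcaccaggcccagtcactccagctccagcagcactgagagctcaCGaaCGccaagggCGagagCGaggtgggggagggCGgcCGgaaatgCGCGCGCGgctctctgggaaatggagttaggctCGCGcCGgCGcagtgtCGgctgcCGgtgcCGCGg
The 6 promoters held 13, 12, 25, 18, 20 and 32 CG dinucleotides, in the order shown. A RefSeq promoter was found for 215 of the 246 members, with a median of 20 CG dinucleotides, against a median of 22 over 14903 protein-coding promoters of the same length. At least 20 were present in 54.4% of the members' promoters and in 57.0% of all protein-coding promoters.

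Total counts ranged from 21496117 to 23868323 per library, and 3 counts in a library corresponded to 0.123 to 0.139 CPM (counts scaled to a library of 1000000). SRRM4 itself had 0 counts in all 6 libraries and so gave no check of the labels. The MSC markers NT5E, ENG and THY1 were present in both groups, but THY1 fell from 144 ± 17.7 to 26.7 ± 2.62 CPM (SD, n = 3 in each group), while NT5E was higher in KO (log2 fold change 0.52) and ENG lower (-0.34) by adjusted p. The stromal genes COL1A1 and PDGFRB also passed the call for a fall (log2 fold change -1.23 and -2.14), and the mesenchymal gene VIM was higher by adjusted p (0.36). Markers of blood, endothelium and epithelium stayed at or near 0 counts (PTPRC, PECAM1, CDH5, EPCAM), except KRT18 at 84.0 and 88.5 CPM, CD14 at 16.8 and 15.9 CPM and CD34 at 3.69 and 3.63 CPM in control and KO. HLA-DRA (7, 11 and 9 counts in control, 0, 4 and 1 in KO) and CDH1 were low. The part of these marker differences in the results below was not tested. Control replicate 1 had counts for 22403 genes, against 20127 to 20674 in the other libraries.

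The first comparison asked whether the members moved as a body between control and KO. They did not move far. Of the 246 members, 222 had enough counts to be tested, and their median log2 fold change (KO over control) was 0.09 (quartiles -0.15 and 0.39), with 132 above 0 and 90 below, beside a median of -0.01 over all 15341 genes tested. With 1 library left out the members' median ran from 0.065 (without control replicate 2) to 0.14 (without control replicate 1). With the call set at an adjusted p under 0.05 (edgeR quasi-likelihood test, Benjamini-Hochberg over all genes tested) and a log2 fold change beyond 1, 10 members rose (4.50%, where 5.45% of all tested genes did) and 3 fell (1.35%, where 7.14% of all tested genes did). By adjusted p alone, 46 members were higher (20.7%, the same share as the 20.7% of all tested genes) and 13 were lower (5.86%, against 20.9%). With 1 library left out, 9 to 15 members were called higher (15 without control replicate 1) and 3 to 5 lower (5 without KO replicate 1). The test glmTreat against the fold threshold left 2 rises and 1 fall, and with no filter on low counts 5 members fell. The count of 46 fell to 26 when KO replicate 2 was left out (11.6% of members, beside 16.2% of all tested genes in that fit), so the shares of rises were not equal there. The count of 13 stayed between 12 and 16 without any 1 library. The groups did not overlap in CPM for 85 members (38.3%, against 51.8% of all tested genes). In bulk RNA, fewer cells with a transcript and less transcript per cell cannot be told apart.

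The share of members that fell was below that of other genes at each level of expression where most members lay. Among genes with a mean of 30 to 100 counts, 5.66% of members and 20.98% of other genes were lower by adjusted p. At 100 to 300 counts the shares were 7.55% and 23.3%, and at 300 to 1000 counts 2.17% and 19.8%. For rises the order changed with level, with 5.66% of members and 12.96% of other genes at 30 to 100 counts, 23.6% and 18.3% at 100 to 300, and 34.8% and 24.5% at 300 to 1000. The 263 genes named in the same way on other chromosomes leaned the other way, with 233 tested, a median log2 fold change of -0.07, 23 higher (9.87%) and 40 lower (17.2%). Other protein-coding genes of chromosome 19, outside the zf-C2H2 family, had a median of 0.16 over 670 tested genes, with 29.3% higher and 13.6% lower. Relative to each gene's mean over the 6 libraries, their median was at -0.29, 0.03 and 0.04 in control replicates 1 to 3 (log2 CPM). In KO replicates 1 to 3 it was at 0.13, 0.16 and -0.02. Control replicate 1 was thus far below the other controls, and KO replicate 3 lay below control replicates 2 and 3. The difference between these sets was not tested.

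**Figure D1:**
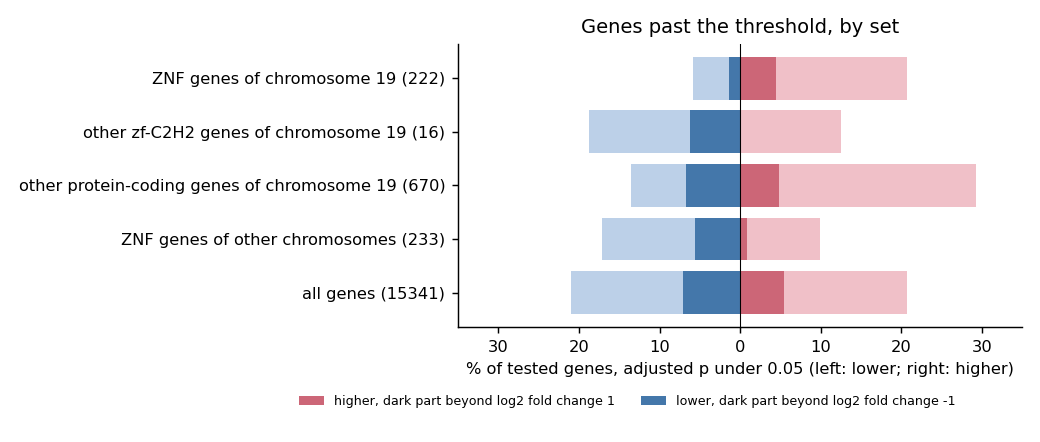
Share of tested genes past an adjusted p of 0.05 in each set of genes, lower in KO to the left and higher to the right; the dark part is the share with a log2 fold change beyond 1, and the number tested stands after each name. The ZNF genes of chromosome 19 have the shortest bar to the left (5.86%) and a bar to the right of the same length as that of all genes (20.7%).

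Summed over the 246 members, the RNA was slightly higher in KO. The sums were 2129, 2003 and 1973 CPM in control replicates 1 to 3 and 2154, 2235 and 2293 CPM in KO replicates 1 to 3. The groups did not overlap, but control replicate 1 and KO replicate 1 lay close together. The means were 2035 ± 82.6 and 2227 ± 69.8 CPM (SD, n = 3). Members were low genes, with a median over tested members of 154 counts per library against 472.5 for all tested genes, and 1.29 CPM per kilobase of transcript against 4.31.

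All 10 members that rose carried the KRAB pattern, as did 86.5% of tested members. ZNF257 (ENSG00000197134, chr19:22052452-22091480, plus strand) had 5, 6 and 2 counts in control replicates 1 to 3 and 35, 31 and 13 in KO replicates 1 to 3. Every KO library lay above every control library, as the naming rule required, though the lowest of them was much nearer to the controls than the other KO libraries. The log2 fold change was 2.49 ± 0.63 (SE), the largest rise among the tested members, with an adjusted p of 0.0047. ZNF439 (ENSG00000171291, chr19:11848726-11883750, plus strand) had 25, 10 and 30 counts in control and 77, 104 and 100 in KO. Control replicate 2 was the low point of a wide control group, and the KO group was tight. The log2 fold change of ZNF439 was 2.04 ± 0.36 (adjusted p = 0.000312).

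ZNF549 (ENSG00000121406, chr19:57527325-57557542, plus strand) and ZNF699 (ENSG00000196110, chr19:9294275-9309838, minus strand) rose from a higher level and with smaller errors. ZNF549 had 122, 82 and 99 counts in control and 279, 349 and 313 in KO, a log2 fold change of 1.57 ± 0.18 (adjusted p = 4.11e-06). ZNF699 had 133, 93 and 125 counts in control and 277, 402 and 303 in KO, a log2 fold change of 1.41 ± 0.18 (adjusted p = 1.34e-05). In both genes the lowest KO library held more than 2 times the counts of the highest control library. ZNF699 overlaps 1 other gene of the table, which is not protein-coding. ZNF550, on the opposite strand, overlaps ZNF549, and reads from the shared stretch cannot be told apart without strand. ZNF550 had a log2 fold change of -0.22 ± 0.17 (adjusted p = 0.353). The part of overlapping reads in the counts of ZNF549 and ZNF699 was not tested.

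ZNF714 had the highest CPM of the members that rose. It had 347, 199 and 257 counts in control and 679, 616 and 689 in KO, or 12.3 ± 3.45 and 29.03 ± 3.26 CPM (SD, n = 3), with a log2 fold change of 1.24 ± 0.17 (adjusted p = 3.65e-05). ZNF681 had 58, 27 and 32 counts in control and 112, 100 and 100 in KO (1.35 ± 0.30, adjusted p = 0.00227). ZNF530 had 91, 68 and 97 counts in control and 176, 211 and 232 in KO (1.21 ± 0.20, adjusted p = 0.000163). In none of these did the groups overlap, again as the naming rule required. ZNF681 and ZNF530 share no stretch with any other gene of the table, and they are the only 2 of the 10 called rises of which this holds. ZNF850, whose protein has 29 fingers by pattern, had 80, 76 and 90 counts in control and 174, 195 and 195 in KO (1.13 ± 0.18, adjusted p = 0.000139). It overlaps ZNF567 on the opposite strand, which had a log2 fold change of 0.27 ± 0.17 (adjusted p = 0.217).

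When the test was made against the fold threshold itself (glmTreat), only ZNF549 and ZNF439 of the 10 rises kept the call. ZNF675 and ZNF154 lost it under further alternatives too, and both genes were named after their values were seen. ZNF675, which is known to interact with TRAF6, had 183, 141 and 160 counts in control and 323, 360 and 348 in KO. Its log2 fold change of 1.02 ± 0.15 (adjusted p = 5.99e-05) sat at the fold threshold and dropped under it with upper-quartile normalization, without control replicate 2 and without KO replicate 3, where it was lowest at 0.94. ZNF154 had 6, 5 and 2 counts in control and 16, 25 and 13 in KO, a log2 fold change of 1.94 ± 0.63 (adjusted p = 0.021). The call was lost in 6 of the 12 alternatives that could be run, among them DESeq2 and leaving out control replicate 2 or 3 or KO replicate 1 or 2, with an adjusted p of up to 0.104 when 1 library was left out. ZNF154 also overlaps ZNF551, which was higher in KO at a log2 fold change of 0.48 ± 0.16 (adjusted p = 0.0219).

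Among the members that fell, ZNF880 stood apart. ZNF880 (ENSG00000221923, chr19:52369917-52385795, plus strand) had 78, 62 and 78 counts in control and 10, 16 and 16 in KO, or 3.32 ± 0.39 and 0.611 ± 0.145 CPM (SD, n = 3). The groups lay far apart, the gene overlaps no other gene of the table, and none of its transcript windows recurs elsewhere. The log2 fold change was -2.43 ± 0.36 (adjusted p = 5.97e-05), 5.40-fold lower in KO. It was the only fall called under each of the 13 alternatives other than glmTreat, and it passed glmTreat too.

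The other called falls were near the threshold. ZNF428, a GC-rich gene with 1 finger by pattern and no KRAB pattern, had 227, 400 and 434 counts in control and 124, 236 and 144 in KO. Control replicate 1 lay just below the highest KO library in counts but above it in CPM (10.5 and 9.69), and the log2 fold change was -1.15 ± 0.24 (adjusted p = 0.00113). Without control replicate 3 or KO replicate 1 it no longer passed the fold threshold, and its smallest change there was -0.996. ZNF626 had 119, 82 and 109 counts in control and 54, 53 and 51 in KO (-1.03 ± 0.25, adjusted p = 0.00341), and lost the call without control replicate 1 or KO replicate 2, where its smallest change was -0.91. ZNF577, named after its values were seen, lay just outside the threshold, its counts being 70, 82 and 84 in control and 44, 45 and 36 in KO (-0.98 ± 0.27, adjusted p = 0.00923). The other 9 members lower by adjusted p ranged from ZNF426 at -0.75 to ZNF507 at -0.35.

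ZNF135, also named after its values were seen, was counted in each control library and in no KO library. It had 20, 27 and 5 counts in control and 0, 0 and 0 in KO, too few to enter the main test. Control replicate 3 was much nearer to 0 than the other controls. Against a floor of 3 counts per KO library, ZNF135 was at least 6.09-fold lower in KO. With no filter on low counts, edgeR gave it an adjusted p of 5.5e-06, and DESeq2 also called it lower. Its gene overlaps ZSCAN18, another zinc finger gene on the opposite strand, which fell with a log2 fold change of -3.23 ± 0.26 (adjusted p = 1.05e-07).

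**Figure D2:**
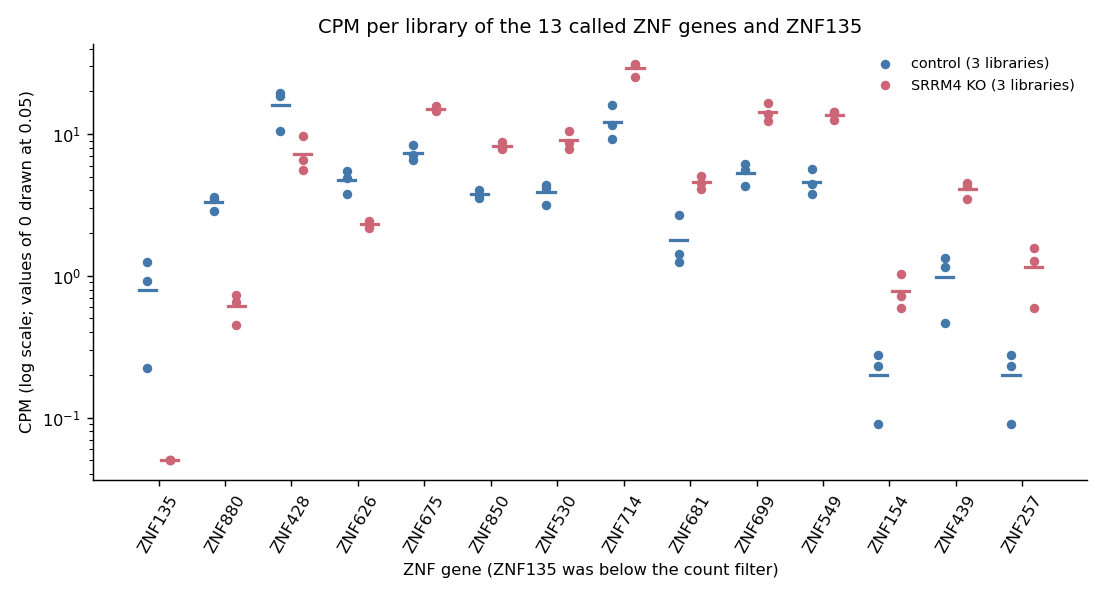
CPM in each library on a log axis for the 13 called ZNF genes, ordered from the largest fall to the largest rise, with ZNF135 first; points are libraries (3 control, 3 SRRM4 KO), lines are group means, and values of 0 are drawn at 0.05. The control and KO points do not overlap in any of these genes, as the naming rule required of all but ZNF135, ZNF154 and ZNF675. The 3 KO points of ZNF135 lie at 0.

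Along the chromosome, the short-arm members had higher fold changes than the long-arm members. Members were put in the order of their starts, and a new segment was begun wherever the next member started more than 1 Mb further on, which gave 16 segments, 8 of them with at least 5 tested members. The 3 such segments of the short arm had medians of 0.35 (ZNF557 to ZNF846, 13 tested), 0.30 (ZNF653 to ZNF791, 19 tested) and 0.39 (ZNF101 to ZNF254, 29 tested). The median of ZNF653 to ZNF791 was 0.17 without KO replicate 3. The 5 of the long arm had medians of -0.18 (ZNF302 to ZNF792, 5 tested), 0.02 (ZNF565 to ZNF573, 26 tested), -0.14 (ZNF575 to ZNF296, 23 tested), 0.00 (ZNF175 to ZNF331, 38 tested) and 0.13 (ZNF628 to ZNF446, 56 tested). With 1 library left out, the long-arm medians ran from -0.067 to 0.12 for ZNF565 to ZNF573, from -0.19 to -0.053 for ZNF575 to ZNF296, from -0.040 to 0.053 for ZNF175 to ZNF331 and from 0.077 to 0.15 for ZNF628 to ZNF446, and over members that overlap no other gene that of ZNF575 to ZNF296 was 0.10. No long-arm segment of this size reached the lowest of these short-arm medians. Over the whole arms, a split chosen after the values were seen, 51 of 66 tested short-arm members lay above 0 (median 0.32) and 81 of 156 on the long arm (median 0.02).

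By adjusted p, 24 short-arm members were higher (36.4%) and 4 lower (6.06%), and 22 long-arm members were higher (14.1%) and 9 lower (5.77%), beside 20.7% higher and 20.9% lower of all tested genes. Without any 1 library the short-arm count of rises stayed between 17 and 26 (25.4% to 39.4%, beside 16.2% to 22.5% of all tested genes), while the long-arm count fell to 7 without KO replicate 2 (4.46%, beside 16.2% of all tested genes in that fit) and to 13 without KO replicate 3 (8.28%, beside 17.2%). Relative to each gene's mean over the 6 libraries, the median short-arm member was at -0.07, -0.17 and -0.24 in control replicates 1 to 3 and at 0.11, 0.16 and 0.29 in KO replicates 1 to 3 (log2 CPM). All KO libraries thus lay above all control libraries. On the long arm the same values were 0.03, -0.03 and -0.06 in control and 0.01, 0.03 and 0.04 in KO, so that control replicate 1 fell among the KO libraries.

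Other tested protein-coding genes of the chromosome differed less between the arms in median and in rises, but more in falls, than the members did. They include zf-C2H2 genes that are not members and genes that lie outside the segments. Their median was 0.17 on the log2 scale over 352 genes from the chromosome start to the last short-arm member. Of these, 29.3% were higher and 10.2% lower by adjusted p. From the first long-arm member to the chromosome end, the median of 328 genes was 0.14 (28.7% higher and 17.4% lower). Within the segment ZNF557 to ZNF846, 26 others had a median of 0.14, and within ZNF653 to ZNF791 5 others had -0.14, both below their members. On the long arm the others lay above the members in ZNF575 to ZNF296 (0.28 over 18 genes), ZNF175 to ZNF331 (0.34 over 4) and ZNF628 to ZNF446 (0.15 over 15), and below them in ZNF565 to ZNF573 (-0.12 over 4). The difference between the arms was not tested. The segment ZNF101 to ZNF254 was a run of zinc finger genes with no other tested protein-coding gene in it. Of its 29 tested members, 12 were higher (41.4%) and 2 lower (6.90%, ZNF506 and ZNF626) by adjusted p. The shares of all tested genes were 20.7% and 20.9%. By the call it held 4 of the 10 rises (ZNF257, ZNF675, ZNF681 and ZNF714) and 1 fall, where 5.45% and 7.14% of all tested genes were called. The members of this segment had the lowest median GC content of the 8 segments, 37.6%.

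**Figure D3:**
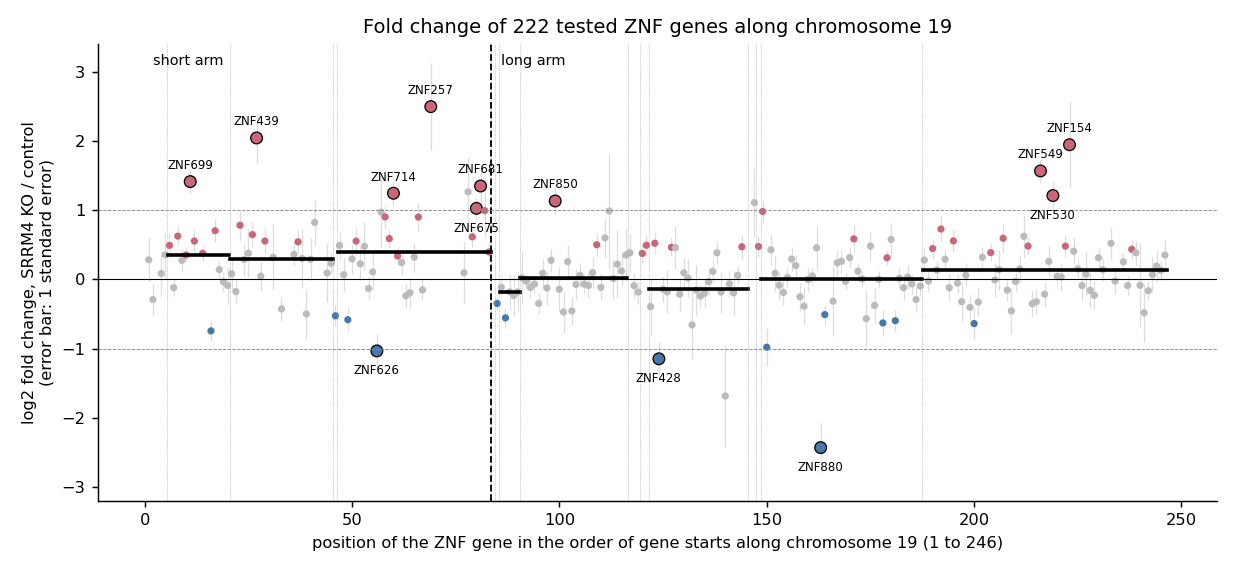
Log2 fold change (SRRM4 KO over control) of the 222 tested ZNF genes, placed by their order along chromosome 19, with 1 standard error; red points are higher and blue points lower at an adjusted p under 0.05, outlined points also passed a log2 fold change of 1, dotted lines part the segments, black bars are medians of segments with at least 5 tested members and the dashed line parts the arms. The bars of the short arm lie at 0.30 to 0.39 and those of the long arm at -0.18 to 0.13.

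Several features that played no part in the choice of members were set beside the calls. The 10 called rises had a median of 12.5 CG dinucleotides in their promoters (range 9 to 25), and only ZNF549 and ZNF850 had 20 or more. Promoters were matched for 42 of the 46 members higher by adjusted p (median 17 CG dinucleotides), for 11 of the 13 lower ones (median 25) and for 144 of the 163 tested members that did not pass an adjusted p of 0.05 (median 21). Finger numbers differed little, with medians of 13, 11 and 12 in the same 3 groups, and a KRAB pattern was present in 38 of 46, 11 of 13 and 143 of 163. The median log2 fold change was 0.11 over the 30 tested members without the pattern and 0.09 over the 192 with it. These are descriptions of the lists, with no test.

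Near-identical copies could affect the counts of some members. The share of 100-base windows of a member's transcripts that occur in another gene's transcripts was 0% for 130 members, above 10% for 47 and above 40% for 13. None of the 10 called rises was above 10%, and of the called falls only ZNF428 was, at 14.4%, shared with SRRM5, which had a mean of 1.33 counts. Among the 62 tested members that overlap no other gene of the table, 2 rose and 1 fell by the call, beside 5.45% and 7.14% of all tested genes. By adjusted p 15 of the 62 were higher (24.2%) and 6 lower (9.68%), beside 20.7% and 20.9% of all tested genes. The short-arm median in this group was 0.35 (18 members) and the long-arm median 0.02 (44 members).

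Up to a mean of 1000 counts, the spread between libraries of one group was close to that of other genes of the same level. At a mean of 100 to 300 counts, where 106 members lay, the median SD of log2 CPM was 0.191 in control and 0.167 in KO for members, and 0.199 and 0.184 for other genes. At 300 to 1000 counts it was 0.159 and 0.126 for 46 members and 0.152 and 0.114 for others. Above 1000 counts, where only 3 members lay, it was 0.164 and 0.129 for members and 0.1254 and 0.0771 for others. Between 2 libraries of the same group, the median member differed by 0.19 to 0.24 on the log2 scale and the median other gene by 0.12 to 0.24. A difference of more than 1 was seen in 0.901% to 2.70% of members (2 to 6 of them) and in 3.14% to 3.83% of other genes. These values between 2 libraries were not matched for level. A mean of 30 counts or fewer was found in 14 of 222 members and in 2169 of 15119 other genes, a larger part.

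**Figure D4:**
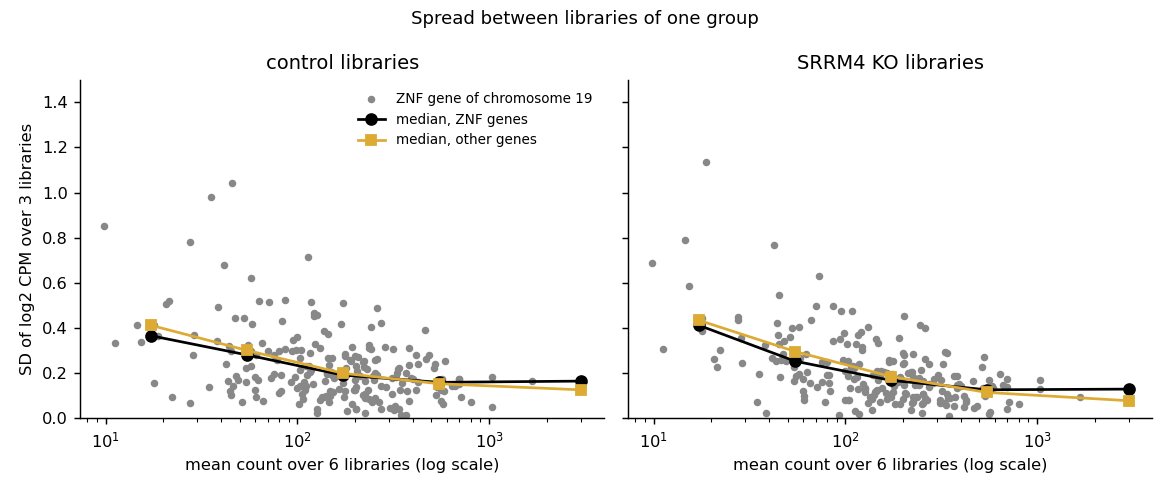
SD of log2 CPM over the 3 libraries of a group against the mean count (log axis), for each tested ZNF gene (grey) and as medians over ranges of mean count for ZNF genes (black) and all other genes (yellow), control on the left and SRRM4 KO on the right. The medians lie close together up to 1000 counts, with 0.191 and 0.199 in control at 100 to 300, and above 1000 counts, where 3 ZNF genes lie, those of the ZNF genes are higher.

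In 4 of the 5 members with the widest spread, the libraries of a group differed as much as the groups. ZNF554 had 78, 160 and 60 counts in control, with replicate 2 far above the others, and 92, 153 and 137 in KO (SD of log2 CPM 0.714 and 0.329). ZNF404 had 85, 65 and 78 counts in control and 37, 101 and 74 in KO, where replicate 1 was the low one. ZNF790 had 127, 59 and 80 counts in control and 69, 64 and 117 in KO, with the groups interleaved. ZNF610 had 75, 34 and 46 counts in control and 60, 85 and 78 in KO. None of these 4 passed the test (adjusted p from 0.276 to 0.752), while ZNF439, the remaining one, did. Without control replicate 2, ZNF554 passed it too, at a log2 fold change of 0.82 (adjusted p = 0.0304), against 0.28 with all 6 libraries.

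Control replicate 1 departed from its group in step with GC content. The members were AT-rich, with a median GC content of 42.3%, against 60.2% for the other protein-coding genes of chromosome 19 outside the zf-C2H2 family. In members of up to 40% GC the median deviation of control replicate 1 from the control mean was 0.19 (log2 CPM), and it was 0.10 at 40 to 45%, 0.04 at 45 to 50% and -0.16 above 50%. Across the 222 tested members, Spearman's rho between GC content and this deviation was -0.43. KO replicate 3 deviated in the same direction, with a rho of -0.25. The same gradient ran through the other genes of these libraries, with a rho of -0.66 for control replicate 1 and -0.49 for KO replicate 3. These points share a library and genes are not independent replicates, so no p is given. The median log2 fold change did not follow GC content, at 0.12, 0.02, 0.14 and 0.13 in the same 4 ranges. Without control replicate 1 the counts by adjusted p were 48 higher and 14 lower.

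A list of 10 members with a known target, partner or imprinting was read, which leaves out others such as ZNF675. Of these 10, 2 were higher and 0 lower by adjusted p, beside 20.7% and 20.9% of all tested genes. The fold threshold was passed by 0 of them in edgeR or in DESeq2. At an unadjusted p under 0.05 the edgeR counts were also 2 and 0. ZNF91, which represses SVA retrotransposons, had 344, 273 and 289 counts in control and 415, 552 and 488 in KO. The groups were apart, with a log2 fold change of 0.61 ± 0.14 (adjusted p = 0.00248). ZNF93, which represses LINE-1 elements, had 255, 167 and 151 counts in control and 255, 302 and 323 in KO. Control replicate 1 equalled KO replicate 1 in counts, and the log2 fold change was 0.55 ± 0.20 (adjusted p = 0.0336). It no longer passed an adjusted p of 0.05 without control replicate 2 (0.113), control replicate 3 (0.148), KO replicate 2 (0.0656) or KO replicate 3 (0.135).

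The other 8 did not pass the test with all 6 libraries. ZNF649 (0.43), ZNF611 (0.31) and ZNF765 (0.03), which bind LINE-1, SVA and LINE-1 elements in that order, and ZNF808 (0.24), which represses MER11 elements, were above 0. Without KO replicate 1, ZNF611 passed at 0.43 (adjusted p = 0.0422), and without KO replicate 3 it was at 0.21 and did not pass. ZNF274, which recruits SETDB1 to the ends of zinc finger genes, was at -0.09 ± 0.14, the imprinted gene ZNF331 at -0.10 ± 0.14, ZNF350, a partner of BRCA1, at -0.09 ± 0.21, and ZNF420, a regulator of p53, at -0.07 ± 0.22 (log2 fold change ± SE).

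A list of KRAB partner genes was also read, which holds wider histone and DNA methylation genes beside those bound or recruited by TRIM28. Several genes of this list were higher in KO. All 24 listed partners were tested, 2 rose and 0 fell by the call, and by adjusted p 9 were higher and 3 lower, beside the 20.7% and 20.9% of all tested genes given above. At an unadjusted p under 0.05, edgeR had 9 higher and 4 lower, and DESeq2 called the same numbers as edgeR, 2 higher and 0 lower. TRIM28, the corepressor that KRAB domains bind, had 5126, 5359 and 5730 counts in control and 9374, 9931 and 8354 in KO. The groups were far apart, at a log2 fold change of 0.70 ± 0.08 (adjusted p = 2.76e-06). SETDB1 had 485, 585 and 532 counts in control and 464, 464 and 445 in KO (-0.29 ± 0.12, adjusted p = 0.0721). The called rises were the histone H3 lysine 9 methyltransferases SUV39H1 (1.32 ± 0.15, adjusted p = 6.7e-06) and SUV39H2 (1.17 ± 0.15, adjusted p = 1.92e-05). Both calls were lost in the glmTreat test against the fold threshold, which left 0 of the partners called.

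Among the heterochromatin protein 1 genes, CBX1 was higher (0.93 ± 0.08, adjusted p = 1.52e-07), while CBX3 and CBX5 did not pass the test (-0.07 and 0.12). The maintenance DNA methylation genes UHRF1 (0.88 ± 0.09) and DNMT1 (0.79 ± 0.08) were higher, and the de novo methyltransferase DNMT3A was lower (-0.61 ± 0.13, adjusted p = 0.00165). CHD3, a helicase of the NuRD complex (-0.73 ± 0.08, adjusted p = 4.27e-06), and MPHOSPH8, a part of the HUSH silencing complex (-0.45 ± 0.10, adjusted p = 0.0016), were also lower.

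By level per length, the most abundant members were ZNF146, which is made of fingers without a KRAB domain, at 18.1 CPM per kilobase, ZNF358 at 13.8, ZNF524 at 10.1, ZNF580 at 8.63 and ZNF865 at 7.73. None of these 5 had a KRAB pattern, and all but ZNF146 had a GC content above 60%. Only ZNF524 passed the test, its counts being 234, 252 and 281 in control and 348, 409 and 337 in KO (log2 fold change 0.44 ± 0.13, adjusted p = 0.0151), and without KO replicate 2 it did not pass (adjusted p = 0.0709). ZNF146 had 1857, 1478 and 1637 counts in control and 1786, 1746 and 1573 in KO, with the groups interleaved (-0.03 ± 0.10, adjusted p = 0.855).

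At the other end, 24 members were not tested. No count was found in any library for 11 of them: ZNF98, ZNF99, ZNF177, ZNF492, ZNF534, ZNF536, ZNF676, ZNF723, ZNF728, ZNF729 and ZNF835. The other 13, ZNF135 among them, had too few counts, and with no filter only ZNF135 of these 13 passed an adjusted p of 0.05. Of the 24, 17 lay on the short arm. More than 40% of the 100-base transcript windows also occurred in another gene for 6 of the 24, beside 7 of the 222 tested members, and for ZNF177 the share was 95.3%, shared with the overlapping gene ZNF559-ZNF177. A count of 0 or a low count in such a member does not show that it was not expressed, and whether its reads were counted elsewhere was not tested.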

How the data were processed

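Messenger RNA of 6 samples was sequenced without strand information, 3 control and 3 SRRM4 KO, grouped by their labels. The values are unnormalized whole-number read counts for each gene, as deposited by the authors. The labels' processing notes name HISAT2 2.0.5, featureCounts 1.5.0-p3 and DESeq2. The treatment of reads that match several genes is not given in the sources used here, so close copies and overlapping genes are uncertain. All 6 columns were used.

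Counts were scaled by TMM and tested with edgeR 4.0.16 (quasi-likelihood, filterByExpr, prior count 0.125, R 4.3.3) over all 15341 genes that passed the filter, with Benjamini-Hochberg adjustment. SE is the log2 fold change divided by the root of F. A call needed both a log2 fold change beyond 1 in size and an adjusted p under 0.05. An exact permutation test of 3 against 3 libraries cannot go below p = 0.1 and was not used. Spread was taken on log2(CPM + 0.25), where CPM is scaled to 1000000 counts of the TMM-adjusted library, from total counts of 21496117 to 23868323. Intervals and floors cover counting error and the spread of these libraries only. The scripts were tested on simulated counts with known changes.

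GC content, fingers, the KRAB pattern (any of 3 amino acid patterns in the translated coding sequence) and shared windows (100 bases, every 5 bases) came from GENCODE 29 transcripts (GRCh38), promoters from RefSeq.

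Named were the 8 largest rises and falls among called members with non-overlapping groups and at least 20 counts in the higher group, the 5 most abundant per kilobase, the 5 with the widest spread at 50 or more counts, and the members of 2 lists (known targets, KRAB partners). The rule's other parts, called members with 3 counts or fewer throughout a group and segments with over 1 in 3 members called, named no gene. Genes outside the rule are said to be. Members and lists were chosen with earlier results of these data known. Replicate numbers did not pair the libraries.

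Alternatives were DESeq2 1.42.0 (size factors alone, and its own test), scaling by upper quartiles, dropping the filter or asking for 10 counts in every library, protein-coding genes only, glmTreat, no fold threshold, a replicate block, each library left out, and members that overlap no other gene.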

Additional observations from a re-analysis of the deposited data

How the results depend on the processing

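Leaving out each library in turn gave 9 to 15 members called higher, 3 to 5 called lower, 26 to 48 higher and 12 to 16 lower by adjusted p alone. These last 2 counts were added as results after the data were seen. The medians of the 3 short-arm segments then ran from 0.31 to 0.38 (ZNF557 to ZNF846), from 0.17 to 0.34 (ZNF653 to ZNF791, lowest without KO replicate 3 and 0.20 without control replicate 3) and from 0.34 to 0.45 (ZNF101 to ZNF254), and those of 2 long-arm segments from -0.19 to -0.053 (ZNF575 to ZNF296) and from 0.077 to 0.15 (ZNF628 to ZNF446), and the median SD within groups from 0.187 to 0.205. Without a filter 5 members were called lower, with ZNF135 and ZNF233 added (ZNF233: 32, 19 and 34 counts in control, 23, 1 and 3 in KO, log2 fold change -1.69 ± 0.73 and adjusted p 0.0796 in the main edgeR test). The test against the fold threshold itself (glmTreat) left 2 rises, ZNF549 and ZNF439, and 1 fall, ZNF880, and called 0 partner genes higher. With no fold threshold 46 members were higher and 13 lower, as were 9 and 3 partner genes. Members that overlap no other gene, which are fewer, gave 2 rises and 1 fall by the call, 15 higher and 6 lower by adjusted p, and medians of 0.43 (ZNF557 to ZNF846), -0.13 (ZNF565 to ZNF573), 0.054 (ZNF628 to ZNF446) and, on the other side of 0 from the main value of -0.14, 0.10 (ZNF575 to ZNF296). The median of ZNF628 to ZNF446 was 0.10 with upper-quartile normalization, 0.10 without a filter and 0.11 with DESeq2, and that of ZNF575 to ZNF296 was -0.082 with at least 10 counts in every library. The causes of these shifts were not tested. The medians of the 3 short-arm segments stayed above 0 under every alternative run.

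Same-numbered libraries deviated from their group means with correlations of -0.15, 0.13 and -0.18 over 12318 genes, so the numbers do not pair them. With the replicate block 12 members were called higher and 4 lower, and 45 were higher and 14 lower by adjusted p.

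The log2 fold changes of 6 named genes near 0 changed sign when 1 library was left out, with ranges of -0.097 to 0.067 for ZNF146, -0.23 to 0.062 for ZNF350, -0.47 to 0.11 for ZNF404, -0.25 to 0.094 for ZNF420, -0.10 to 0.16 for ZNF765 and -0.51 to 0.21 for ZNF790. The low counts of the members limit small changes: at a mean of 30 to 100 counts the median SD within groups was 0.280 in control and 0.252 in KO on the log2 scale.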
